A study of Mus musculus with 6 samples.

Results

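The 10 genes described here are the mast cell and basophil genes Fcer1a, Ms4a2, Fcer1g, Cpa3, Mcpt8, Prss34, Tpsb2, Gzmb, Hdc and Mitf, taken by name from a table of 16440 genes; all 10 were found in it. RNA sequencing compared 3 libraries of normal myeloid progenitors (MPs) with 3 libraries of c-Kit+ APL progenitors, cells of acute promyelocytic leukemia. Both groups are mouse cells of the FVB N/J strain, and the labels name no treatment and no age. The MPs were Lin-Sca-1-c-Kit+ bone marrow (BM) cells. The APL cells came from hMRP8-PML/RARα transgenic mice, in which the human MRP8 promoter drives the PML/RARα fusion in myeloid cells. They were labeled with GFP by a retroviral vector, expanded in syngeneic recipient mice and taken as GFP-labeled c-Kit+ cells, so transgene, vector and transplantation separate the groups together with the leukemia. The series describes its 3 replicates per group as biological; whether each came from its own mouse, or all from 1 leukemia, was not stated in the sources used here, and p-values measure only the spread between these libraries.

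Mast cells and basophils are granulocytes of allergic inflammation. Both display the high-affinity IgE receptor FcεRI, built of an IgE-binding α chain, a signal-amplifying β chain and a pair of γ chains, and its crosslinking by antigen releases granules filled with histamine and proteases bound to serglycin. They arise in the BM from c-Kit+ myeloid progenitors under the control of GATA2, PU.1, C/EBPα and STAT5, and MITF favours the mast cell branch. Carboxypeptidase A3, tryptases and chymases are proteases of mast cell granules, whereas the proteases encoded by Mcpt8 and Prss34 mark mouse basophils.

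The 10 genes did not move as 1 group. Gzmb, Cpa3, Tpsb2, Ms4a2, Hdc and Fcer1a were lower in c-Kit+ APL progenitors, Mcpt8, Fcer1g and Mitf were higher, and Prss34 was not called. The fall was 43.5-fold for Cpa3 and between 2.35-fold and 3.72-fold for Fcer1a, Hdc and Ms4a2 in the ratio of group means, while the 3 rises lay between 2.01-fold and 2.17-fold. All 10 passed the filter on low values, which asked for a value of 1 or more in 3 or more libraries. A gene was called at a Benjamini-Hochberg adjusted p under 0.05 in limma and a fold change over 1.5, and 24.4% of the 14595 genes tested were called lower and 21.7% higher by this rule. The 6 lower genes had 3 APL values below all 3 MP values, an arrangement found for 39.8% of genes tested, and the 3 higher genes the reverse, found for 31.1%. Tpsb2, at 0 in every APL library, passed the filter only through its MP values, so its direction and separation were fixed in advance. At a minimum of 10 scaled fragments, Tpsb2 was not tested and 5 of the 10 genes were called lower. The median log2 fold change was −1.41 over the 10 genes and −0.10 over all genes tested. With Tpsb2 set as if it had 3 fragments over the APL group, the median of the 10 stayed at −1.41. Tpsb2 remained on the lower side of the median there, so this setting could not move it. In these bulk samples, fewer cells of a type and less RNA per cell cannot be told apart.

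**Figure D1:**
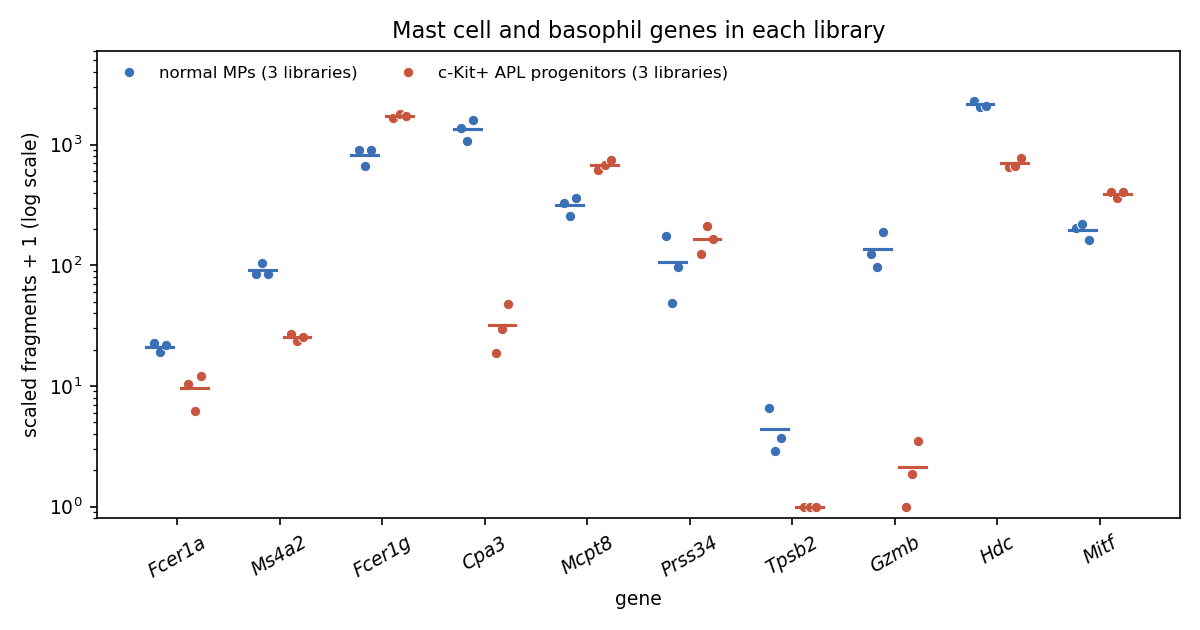
Scaled fragments plus 1 on a log axis for each of the 10 genes, with 1 point per library and a line at the group mean. The groups are separate for every gene but Prss34, whose MP values run from 47.6 to 175 and APL values from 123 to 211, and the widest gaps are those of Cpa3 and Gzmb.

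Values are given as scaled fragments, the deposited estimate of sequenced fragments per gene after a scaling of each library, in the order of libraries 1 to 3. Before that scaling the libraries held between 20608715 and 28382785 fragments, and 1 fragment is worth between 0.867 and 1.23 scaled fragments. Of the granulocyte monocyte progenitor markers, Mpo was between 211340 and 558727 and Elane between 45107 and 177997 scaled fragments in all libraries, whereas Cd34 had 5956, 6152 and 7944 in the MP libraries against 74.2, 91.0 and 82.7 in the APL libraries. Of the T cell genes, Cd3e was at 0 in 5 of the 6 libraries and Cd3d had between 18.1 and 43.3 scaled fragments in all 6. Kit, the sorting marker, averaged 10668 ± 272 scaled fragments over the MP libraries and 5929 ± 132 over the APL libraries (SD, n = 3).

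For the promoters, RefSeq windows on GRCm38.p6 were at hand for 9 of the 10 genes, with 3 start sites for Mitf and none for Tpsb2. The windows of Mcpt8 and Hdc lie wholly inside the RefSeq spans of these minus-strand genes, which run to 56085499 and 126624025. Any starts further upstream were not searched. The 250 bases before the start are shown for a pair of genes that fell (Cpa3, Ms4a2) and a pair that rose (Fcer1g, Mcpt8), all on the minus strand, printed 5′ to 3′ in the direction of the gene. Capitals mark the letters of a GATA motif (AGATAA, or the same with T as its first base, G as its last base or both, on either strand).
Cpa3, chr3:20242182-20242431: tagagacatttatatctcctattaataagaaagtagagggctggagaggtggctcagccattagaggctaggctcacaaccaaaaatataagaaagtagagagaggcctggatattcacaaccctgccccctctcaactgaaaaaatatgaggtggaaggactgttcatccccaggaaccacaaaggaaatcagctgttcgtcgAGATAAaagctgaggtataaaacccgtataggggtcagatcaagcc
Ms4a2, chr19:11623720-11623969: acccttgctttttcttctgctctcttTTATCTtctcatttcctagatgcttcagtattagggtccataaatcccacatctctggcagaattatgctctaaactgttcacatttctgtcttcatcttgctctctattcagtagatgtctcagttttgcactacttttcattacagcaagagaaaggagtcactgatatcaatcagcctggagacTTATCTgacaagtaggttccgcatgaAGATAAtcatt
Fcer1g, chr1:171234350-171234599: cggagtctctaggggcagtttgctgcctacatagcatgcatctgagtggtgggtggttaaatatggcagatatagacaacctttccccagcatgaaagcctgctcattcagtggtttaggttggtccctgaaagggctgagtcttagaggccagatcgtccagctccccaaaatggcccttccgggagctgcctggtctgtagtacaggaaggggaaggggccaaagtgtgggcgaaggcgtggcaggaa
Mcpt8, chr14:56085198-56085447: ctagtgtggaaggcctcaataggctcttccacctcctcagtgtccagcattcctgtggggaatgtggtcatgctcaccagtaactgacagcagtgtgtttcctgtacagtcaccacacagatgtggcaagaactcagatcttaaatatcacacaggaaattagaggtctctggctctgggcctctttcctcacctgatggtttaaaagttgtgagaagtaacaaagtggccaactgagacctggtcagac

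The Ms4a2 window held 3 matches, at 224 to 219, 37 to 32 and 11 to 6 bases before the start, and the Cpa3 window 1, at 46 to 41 bases. Fcer1g and Mcpt8 held none. Among the other genes, Fcer1a, Hdc and Prss34 had 1 match each. Gzmb had none, and Mitf had a match at 2 of its 3 start sites. A link between the motif and the changes was not tested. In all, 7 of the 11 windows, from 6 of the 9 genes, held the motif, against 26.5% of 32851 RefSeq windows of the same length. The E-box letters CACGTG, or the same with T as the third base, on either strand, which MITF can bind, were in 2 of the 11 windows (Fcer1a and Prss34) and in 17.6% of all windows. These are letter matches and do not show binding.

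The genes of the IgE receptor subunits changed in opposite directions. Fcer1a and Ms4a2, which encode the FcεRI α and β chains, were lower in c-Kit+ APL progenitors, and Fcer1g, whose γ chain also serves other activating receptors of myeloid cells, was higher. Fcer1a (chromosome 1, 173221271 to 173227229 on mm10, the build of all positions given for genes) was low in every library, at 21.5, 18.1 and 20.7 scaled fragments in the MP libraries against 9.43, 5.20 and 11.1 in the APL libraries. The groups did not overlap, but the APL values stood for only 8, 6 and 9 fragments before scaling. Its log2 fold change came to −1.19 (standard error, SE, 0.32; adjusted p = 0.0095 in limma), and under quantile normalization it was −0.51 (adjusted p = 0.18) and no longer called.

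Ms4a2 (chromosome 19, 11617193 to 11623643) had 84.3, 104 and 83.9 scaled fragments in the MP libraries against 25.9, 22.5 and 24.7 in the APL libraries. The lowest MP value stood far above the highest APL value, and within the APL group the highest value was 1.15 times the lowest. In the fit the gene differed by −1.85 on the log2 scale (SE 0.20, adjusted p = 4.0e-05 in limma). Fcer1g (chromosome 1, 171229572 to 171234349) had 903, 663 and 895 scaled fragments in the MP libraries against 1667, 1781 and 1735 in the APL libraries. MP library 2 was the lowest of its group, and all MP values lay below all APL values. On the log2 scale the difference was 1.09 (SE 0.12, adjusted p = 4.9e-05 in limma). Per transcript length, Fcer1g exceeded Ms4a2 by a ratio of FPKM between 11.7 and 18.9 in the MP libraries and between 115 and 146 in the APL libraries.

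Of the granule proteases, Cpa3, Gzmb and Tpsb2 fell, Mcpt8 rose and Prss34 was not called. Cpa3 (chromosome 3, 20215616 to 20242181), which encodes the mast cell carboxypeptidase, had 1380, 1078 and 1595 scaled fragments in the MP libraries against 17.7, 28.6 and 46.9 in the APL libraries. It went from one of the more abundant transcripts of the 10 to a low one, and although the highest APL value was 2.65 times the lowest, none came near the MP range. Its log2 fold change came to −5.48 (SE 0.31, adjusted p = 7.2e-07 in limma), and 2.39% of genes tested had a larger decrease.

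Gzmb (chromosome 14, 56258858 to 56262260) encodes granzyme B, the serine protease of cytotoxic lymphocyte granules, which mast cells and basophils can also make. It had 124, 96.2 and 189 scaled fragments in the MP libraries against 0, 0.867 and 2.47 in the APL libraries, which are 0, 1 and 2 fragments before scaling. Summed over the libraries, 443 fragments in the MP group stood against 3 in the APL group, a 129-fold ratio after scaling with an exact 95% interval from 43.8 to 626 that covers counting error only. The fitted log2 fold change was −6.15 (SE 0.47, adjusted p = 4.5e-06 in limma); because the APL values are near 0 it moved with the pseudocount, from −6.70 at 0.5 to −4.50 at 5. Gzma and Cd3e, of the cytotoxic lymphocyte markers, were at 0 in 5 of the 6 libraries and Prf1 in 4, whereas Nkg7 had between 3338 and 3814 scaled fragments and Cd3d between 18.1 and 43.3 in all 6. Klrb1c, also of that list, was called lower like Gzmb, with 6.56, 13.3 and 19.7 scaled fragments in the MP libraries and 3.53, 6.07 and 3.07 in the APL libraries (adjusted p = 0.020 in limma), and Ncr1 had at most 3.61 in any library. The part of these cells in the Gzmb result was not tested.

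Tpsb2 (chromosome 17, 25366333 to 25368092), a mast cell tryptase, was barely detected. It had 5.62, 1.90 and 2.71 scaled fragments in normal MPs, or 6, 2 and 3 before scaling, and 0 in all 3 APL libraries. With 3 fragments over the APL group in place of its count of 0, it was 3.20-fold higher in normal MPs. That ratio leaves out the counting error of the MP fragments, so it is not a lower limit. The call (adjusted p = 0.0025 in limma) rests on 11 fragments, and its direction followed from passing the filter through the MP values only. The related tryptase gene Tpsab1 had 0, 1.90 and 0 scaled fragments in normal MPs, and whether it shares reads with Tpsb2 was not tested.

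Mcpt8 (chromosome 14, 56082164 to 56085197), a basophil protease, had 329, 253 and 357 scaled fragments in the MP libraries against 611, 683 and 745 in the APL libraries. The lowest APL library was well above the highest MP library. In the fit the gene differed by 1.13 on the log2 scale (SE 0.14, adjusted p = 1.2e-04 in limma), and 13.7% of genes tested had a larger increase. Prss34 (chromosome 17, 25298394 to 25300161), also a basophil protease, had 175, 47.6 and 95.6 scaled fragments in the MP libraries against 123, 211 and 163 in the APL libraries. MP library 1 lay above APL libraries 1 and 3, and the MP values differed 3.68-fold among themselves. The log2 fold change was 0.79 with a 95% confidence interval from −0.16 to 1.74 (adjusted p = 0.12 in limma), an interval that holds both 0 and the value of Mcpt8. Without MP library 1 it was 1.25 and was called (adjusted p = 0.0084), and without MP library 2 it was 0.32 (adjusted p = 0.37).

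**Figure D2:**
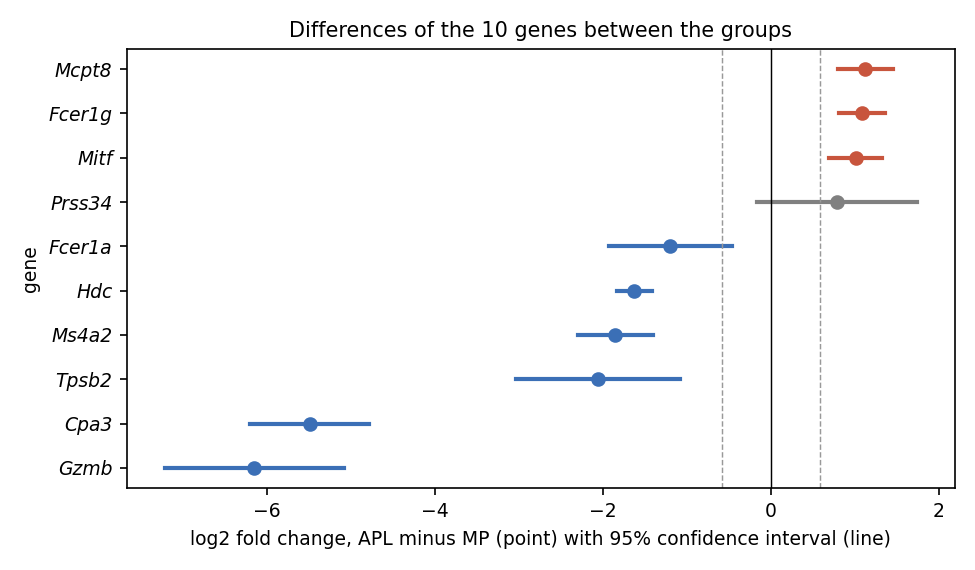
Log2 fold change of each gene, APL minus MP, as a point with its 95% confidence interval from limma; the solid line is at 0 and the dashed lines at a 1.5-fold change in either direction. Cpa3 and Gzmb stand apart on the lower side, the intervals of Mcpt8, Fcer1g and Mitf overlap around a doubling, and that of Prss34 spans 0.

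Hdc (chromosome 2, 126593668 to 126618665) encodes histidine decarboxylase, the enzyme that makes histamine. It had 2314, 2065 and 2086 scaled fragments in the MP libraries against 653, 668 and 781 in the APL libraries. Both groups were tight, the highest value being 1.12 times the lowest in the MP group and 1.20 times in the APL group. On the log2 scale the difference was −1.62 (SE 0.09, adjusted p = 6.9e-07 in limma), and the gene still had 554, 771 and 633 fragments before scaling in the APL libraries.

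Mitf (chromosome 6, 97807058 to 98021358) encodes the helix-loop-helix factor of mast cells, melanocytes and osteoclasts. It had 201, 220 and 161 scaled fragments in the MP libraries against 404, 361 and 406 in the APL libraries. The lowest APL value was 361 and the highest MP value 220. Its log2 fold change came to 1.01 (SE 0.14, adjusted p = 2.0e-04 in limma). The table gives 1 value per gene, so the 3 start sites of Mitf, which give different isoforms, were not told apart. A two-sided exact permutation test on the 6 libraries gave p = 0.1 for each of the 9 called genes, the smallest p that 3 libraries against 3 allow, and p = 0.3 for Prss34.

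Levels can be compared between genes as FPKM, fragments scaled by transcript length and library depth. In normal MPs, Fcer1g led with 66.1 ± 9.27 FPKM, followed by Cpa3 with 34.0 ± 6.61 and Hdc with 33.3 ± 2.29 (SD, n = 3), whose ranges overlapped. Mcpt8 had 17.4 ± 2.60. Ms4a2, Prss34 and Gzmb lay together between means of 4.12 and 3.41, with overlapping libraries, and Mitf, Fcer1a and Tpsb2 followed at 1.46, 0.862 and 0.147. In c-Kit+ APL progenitors the order changed to Fcer1g (144 ± 9.16 FPKM), Mcpt8 (38.6 ± 2.76), Hdc (10.9 ± 1.03), Prss34 (6.07, from 4.54 to 7.74) and Mitf (2.93 ± 0.198). Cpa3 stood at 0.786 ± 0.340, overlapping Ms4a2 at 1.11 ± 0.0939, and Gzmb and Tpsb2 came last. In scaled fragments, library 2 of the normal MPs had the lowest value for 8 of the 10 genes. The exceptions were Ms4a2 and Mitf, for which it had the highest. In FPKM, Hdc was lowest in MP library 3 instead (31.7 against 32.4 in library 2).

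Mcpt8 and Gzmb belong to the same cluster of serine proteases on chromosome 14, the chymase locus, and are 173660 bases apart. Mcpt8 and its neighbour Ctsg, the gene of the neutrophil protease cathepsin G, were higher in c-Kit+ APL progenitors, whereas Gzmb at one side and the mast cell chymase gene Cma1 at the other were lower. Ctsg (56099881 to 56102574) went from 25118 ± 1864 to 147607 ± 11612 scaled fragments, a log2 fold change of 2.55 (SE 0.13, adjusted p = 4.1e-07 in limma). Cma1 (55941451 to 55944661) had 34.7, 18.1 and 41.5 scaled fragments in the MP libraries against 0, 1.73 and 0 in the APL libraries. Gzme, at 0 in the MP libraries, had 2, 2 and 3 fragments in the APL libraries, a call that rests on 7 fragments. Mcpt1, Mcpt2, Mcpt4 and Cma2 were too low to test, with at most 7.21 scaled fragments in any library. Of the 13 other genes listed for the locus, only 7 were found. Mcpt9, Gzmc, Gzmd, Gzmf, Gzmg and Gzmn were not, so the locus is covered in part. The members of this locus are similar in sequence, and how shared reads were divided among them is not given in the sources used here.

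**Figure D3:**
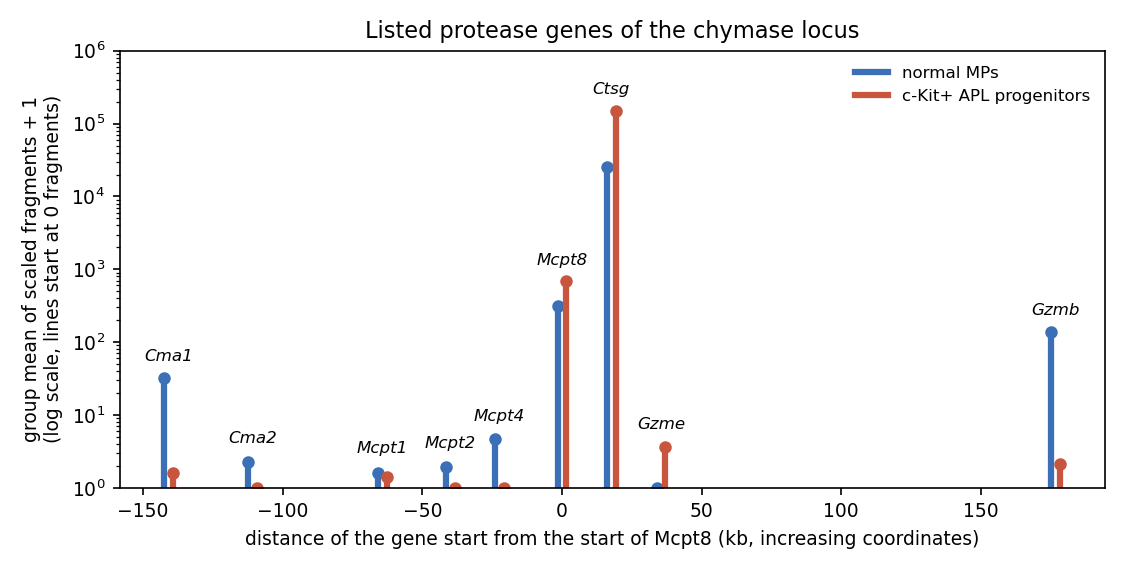
Group means of scaled fragments plus 1 on a log axis for the listed protease genes of the chymase locus that were found, placed by the distance of the gene start from that of Mcpt8 in kb. Mcpt8 and Ctsg are higher in the APL group, while Cma1 on the left and Gzmb on the right are higher in the MP group.

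On chromosome 17, Prss34 and Tpsb2 are 66171 bases apart in the tryptase cluster. Of the tryptase list outside the 10 genes, Tpsg1 and Prss29 were not found, and Tpsab1, Prss28, Prss30 and Prss32 were too low to test. Prss33 and Prss41, which lie more distant on the chromosome, were called higher at 7.20 ± 2.03 against 0.947 ± 0.952 and 19.4 ± 1.59 against 9.24 ± 4.43 scaled fragments (SD, n = 3 each; adjusted p = 0.0027 and 0.027 in limma).

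Beyond the 10 genes, 92 others were listed for mast cells and basophils, of which 81 were found by name or gene ID and 69 could be tested. Of the 69 tested, 21 were lower and 28 higher in c-Kit+ APL progenitors. Itga2 among the lower, and Gzme and Dct among the higher, were at 0 throughout the other group. They passed the filter only through the group where they are high, so their direction was fixed in advance. The shares over all genes tested were 24.4% and 21.7%. The median log2 fold change of the 69 was 0.21. In the signalling chain below FcεRI, 2 of 15 genes were lower and 4 higher, with a median of −0.10. The lower ones were the adaptor Lat (−1.70 on the log2 scale, SE 0.18) and the phospholipase Plcg1 (−0.98, SE 0.09). The higher ones included the adaptor Lcp2 (1.30), the Src family kinase Lyn, which starts the cascade at the β chain (1.16), and the phospholipase Plcg2 (1.09), each with an adjusted p of at most 3.3e-06 in limma. Lat2, a related adaptor of mast cells, was at −0.34 and was not called. Among receptors that use, or are related to receptors that use, the γ chain, 3 of 8 were higher and 0 lower: Clec4e (2.22), Fcgr3 (1.89) and Cd300lb (1.81). Lilrb3 on this list is an inhibitory receptor that does not need the γ chain, and it was at 0.21 and not called.

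Of the 10 genes of granule storage and lipid mediators tested, 4 were lower and 6 higher. Slc18a2, the transporter that loads histamine into granules, fell from 1051, 1205 and 1271 scaled fragments to 53.0, 104 and 90.1, a log2 fold change of −3.87 (SE 0.23, adjusted p = 8.9e-07 in limma). Hnmt, which inactivates histamine, rose from 346 ± 23.3 to 1523 ± 69.4 scaled fragments, a log2 fold change of 2.13 (adjusted p = 9.4e-08). Srgn, the serglycin core protein of granules in many myeloid cells, had a log2 fold change of 1.11, and Ptgs2, an inducible prostaglandin synthase, 3.88. Hpgds and Ltc4s, which make prostaglandin D and leukotriene C, were lower at −3.16 and −2.84, from means of 22.5 and 15.0 scaled fragments in normal MPs. Before scaling, the APL libraries held only 5, 0 and 1 fragments of Hpgds and 0, 1 and 2 of Ltc4s, so the sizes of these falls are uncertain.

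Of the 10 surface receptor genes tested, 5 were lower and 4 higher. Il1rl1, the IL-33 receptor ST2 of mast cells and basophils, went from 995, 1130 and 893 to 10.6, 12.1 and 17.3 scaled fragments, a log2 fold change of −6.15 (SE 0.20, adjusted p = 3.5e-08 in limma). Itgb7, the integrin chain found on mast cell precursors, fell by 2.39 on the log2 scale, and Kit by 0.85. Itga2 had 9, 3 and 8 fragments in normal MPs and 0 in the APL libraries. The IL-3 receptor genes rose together: Csf2rb had 2.70, Csf2rb2 2.06 and Il3ra 1.81 as log2 fold changes, with adjusted p at most 1.4e-05 in limma. Csf2rb and Csf2rb2 are near-identical copies, so their shares are uncertain. Of the cytokine genes, Il6, Ccl4 and Csf1 were lower and Ccl3 and Tnf higher, out of 5 tested, with Il6 below 11 scaled fragments everywhere.

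Of the 10 fate transcription factors, 6 were lower and 2 higher, with a median log2 fold change of −0.86. Gata1 (−7.40), Gata2 (−5.33) and Tal1 (−2.09) fell furthest. The higher ones were Sfpi1, the gene of PU.1, at 1.47 and Cebpa at 1.34, each with an adjusted p of at most 8.7e-06 in limma. Of Mitf's relatives, Tfec rose from 1124 ± 76.9 to 5999 ± 150 scaled fragments (2.42) and Tfeb from 267 ± 38.1 to 509 ± 59.8 (0.93), while Tfe3 was at −0.05 and not called. Of the pigment genes, Tyr and Pmel were not called, and Dct was called on 7 APL fragments against 0.

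**Figure D4:**
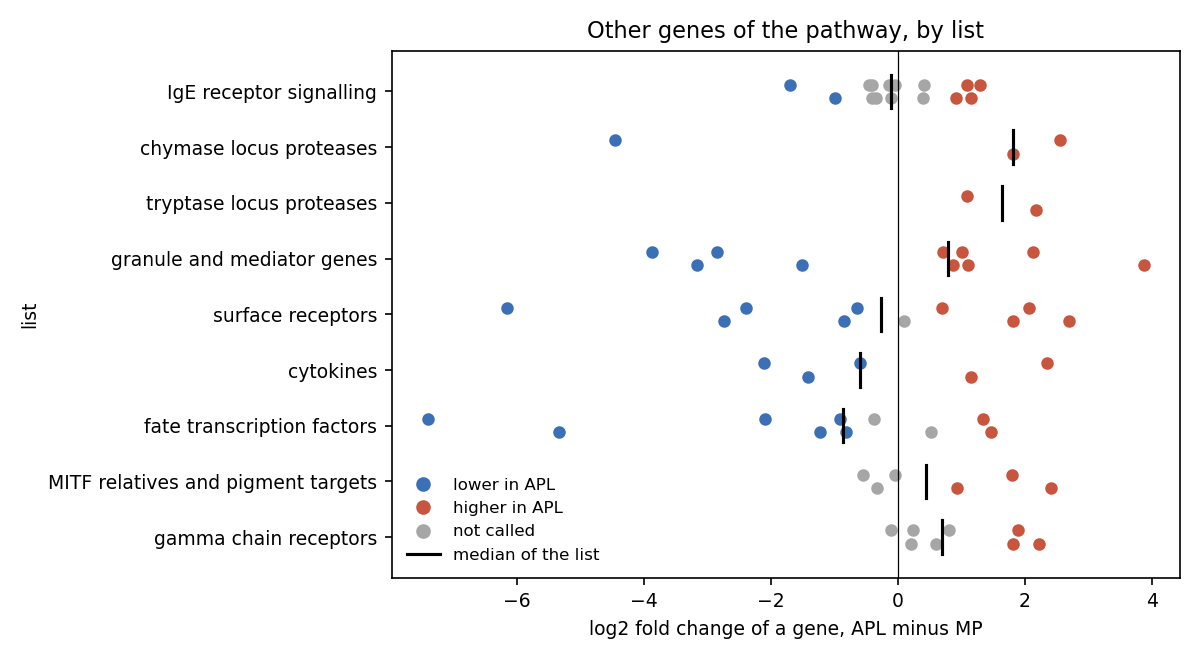
Log2 fold changes, APL minus MP, of the other listed genes that could be tested, by list, with 1 point per gene coloured by its call and a black line at the median of the list. Lower and higher genes occur together in most lists, and the lowest points are Gata1 and Gata2 among transcription factors and Il1rl1 among surface receptors.

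Marker lists of 6 cell types were summed per library. The sums of 5 lists did not overlap between the groups and those of the cytotoxic lymphocyte list did. Of single genes tested, 39.8% were lower and 31.1% higher in APL libraries without overlap, so this count is not read as a result about the cell types. The part of these cell types in the results was not tested. The mature mast cell list, which shares Cpa3 and Tpsb2 with the 10 genes, summed to between 1100 and 1647 scaled fragments in the MP libraries and between 17.7 and 46.9 in the APL libraries. All 3 of its 6 genes that could be tested were lower, and Tpsb2, Tpsab1, Mcpt4 and Mrgprb2 were at 0 in every APL library. In normal MPs, Tpsab1 and Mrgprb2 were at 0 in 2 of 3 libraries. Cpa3, with a mean of 1351 scaled fragments there against 31.4 for Cma1, 3.41 for Tpsb2 and 3.65 for Mcpt4, made up nearly all of the sum. The sum therefore follows Cpa3 and is not read as an amount of mature mast cells in either group. The basophil list, which shares Mcpt8, Prss34 and Fcer1a, summed to between 608 and 887 in the MP libraries and between 1724 and 2311 in the APL libraries, with 2 of 5 genes lower (Itga2, Fcer1a) and 2 higher (Il3ra, Mcpt8). Il3ra was the largest part of the APL sums, at 979, 1409 and 1138 scaled fragments against 312, 286 and 407 in the MP libraries. Cd200r3, a defining basophil receptor, had at most 3.47 scaled fragments in any library. All 9 erythroid and megakaryocytic markers were lower, with sums between 45130 and 61450 in the MP libraries and between 300.4 and 471.5 in the APL libraries, and 6 of 8 eosinophil markers were lower and 1 higher, with sums between 4895 and 8164 and between 2626 and 3164. The cytotoxic lymphocyte list summed to between 3380 and 3638 in the MP libraries and between 3367 and 3848 in the APL libraries, nearly all of it Nkg7, and of its 4 genes tested 1 was lower (Klrb1c) and 3 were not called. Of the granulocyte monocyte progenitor markers, 4 of 7 were higher (Ctsg, Elane, Mpo, Csf3r) and 2 lower (Cd34, Kit), with sums between 327300 and 363300 and between 782900 and 935800.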

How the data were processed

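The authors deposited 1 table of 16440 genes with, for each of the 6 libraries, an FPKM value and estimated fragments; the deposited fragment values (unit: signal) had been multiplied by 1 factor per library. That factor was read as the most frequent nonzero value, and between 81.5% and 87.1% of nonzero values were whole multiples of it (within 0.01), too few for a count test, so limma was used as planned. Per the labels, CASAVA 1.8, TopHat2 2.0.6 and mm10 were used, with no role given; the study's methods name STAR, mm9 and HTSeq-count for RNA-seq. The tool that estimated the table is not given in the sources used here. Starts in the table count from 0 (adding 1 matched 7054 RefSeq starts of GRCm38, without it 585), and 1 was added.

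Genes with at least 1 scaled fragment in at least 3 libraries were tested on log2(scaled fragments + 1) with limma 3.58.1 (lmFit, eBayes with a trend) in R 4.3.3, two-sided, all 6 libraries, with Benjamini-Hochberg adjustment over all 14595 genes. On this scale, low genes are understated. Totals before scaling ran from 22976905 to 26932327 fragments in MP and from 20608715 to 28382785 in APL libraries. Listed symbols were matched by name, or by gene ID for 3 (Spi1, Pirb, Siglecf). The 10 genes and all lists were chosen with earlier results of these data known. From each list, up to 3 lower and 3 higher called genes with the largest changes were named, and Kit, Il1rl1, Gata2, Gata1, Ctsg, Tpsab1 and Lat2 in any case; Tfe3, Lilrb3 and genes too low to test were named after their values were seen. Promoter letters come from RefSeq. Alternatives covered the filter, pseudocount, normalization, unit, variance model, replicate block, fold threshold and each library left out. Figures used matplotlib 3.10.9.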

Additional observations from a re-analysis of the deposited data

How the results depend on the processing

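The counts of 6 lower and 3 higher genes among the 10, and of 21 lower and 28 higher among the other listed genes, stayed within 1.5 times these values under all 17 alternatives. Of 155 values of single genes under 16 alternatives, 153 kept their direction and call, and 0 were reversed. The exceptions were Fcer1a under quantile normalization (−0.51, not called) and Prss34 without MP library 1 (1.25, called). With 1 library left out at a time, the log2 fold change stayed between −5.83 and −5.15 for Cpa3, −6.60 and −5.70 for Gzmb, −1.39 and −0.91 for Fcer1a, 0.98 and 1.23 for Mcpt8 and 0.32 and 1.25 for Prss34. Tpsb2 gave no value in FPKM, at a minimum of 10 scaled fragments or without any 1 MP library, and ranged from −2.85 to −0.73 with the pseudocount. Scaling to the same total moved the median of all genes from −0.10 to −0.23 and changed no call of the 10 genes. In the fit with a replicate block (library numbers), 6 and 3 of the 10 genes were called, and Prss34 stayed uncalled (adjusted p = 0.072). Deviations of same-numbered libraries correlated at 0.261, −0.133 and 0.255 over 11002 genes, so the numbers were not taken as pairs. Depth limits Tpsb2, Gzmb in APL libraries and Fcer1a, each at or under 10 fragments there.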
